A study of Homo sapiens with 183 samples.

Results

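The knockout of RUVBL2 in T3M-4 cells was measured by messenger RNA sequencing in 4 sgRUVBL2 libraries and 4 sgRosa control libraries, 8 of the 183 libraries of the series. The members were chosen by their labels: all libraries of T3M-4 in experiment 2 that carry the genotype sgRUVBL2 or sgRosa. T3M-4 is an established human pancreatic cancer line that the study uses as a model of the basal-like subtype. The cells stably expressed Cas9, received their sgRNA by lentivirus and were collected on day 5. The sgRosa controls carried an sgRNA against ROSA26, so they share Cas9, vector and culture with the knockouts. The study's figure legends give a pair of sgRNAs each for RUVBL2, RUVBL1, KLF5 and ROSA26. Its list of sgRNA sequences holds more than a pair for RUVBL2, RUVBL1 and KLF5, and a single sgRNA each for CDK1 and RPA3. The study states 2 replicates per sgRNA, but the labels do not say which sgRNA a library received. Libraries that share an sgRNA cannot be told apart, and the fit treats all libraries of a group as independent. The same experiment holds 3 sgRUVBL1, 2 sgCDK1, 2 sgRPA3 and 4 sgKLF5 libraries of T3M-4, which serve here for direct comparisons. Of 19875 gene names in the table, 13136 averaged 1 TPM or higher across these 8 libraries and were tested. At this limit, 144 genes averaged from 1 to 1.1 TPM and 150 from 0.9 to 1 TPM, with 1.003 TPM just inside and 0.9998 TPM just outside.

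TPM, the unit of the table, is a level per transcript length scaled to the same total in each library. RUVBL2 and its partner RUVBL1 are AAA+ ATPases that assemble together into ring-shaped complexes. The rings are core parts of the INO80, SRCAP and TIP60 chromatin complexes. Bound to RPAP3 and PIH1D1 they form the R2TP co-chaperone, which works with HSP90 on the assembly of RNA polymerase II, of box C/D small nucleolar ribonucleoproteins and, through the TTT adaptor, of the large PI3K-like kinases. The study asks whether these ATPases serve KLF5, a zinc finger transcription factor of epithelial cells, as coactivators. The other knockouts include CDK1, a mitotic kinase, and RPA3, a subunit of the single-stranded DNA binding protein RPA, both needed by dividing cells.

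Neither read counts nor depth are given in the table, so only the genes detected at 1 TPM or above can be counted. They numbered 13116 to 13575 in the sgRUVBL2 libraries and 12411 to 13028 in the sgRosa libraries. The lowest was sgRosa replicate 4, which also stood apart from the other 3 controls on the first principal component (41% of the variance, score -52.5 against -28.2 to -16) and had a best correlation with another control of 0.983. sgRUVBL2 replicate 1 stood apart from its group in the same sense (score 11.4 against 24.2 to 32.4). No pair of libraries held identical values. Of 8 markers of pancreatic tumour epithelium all were tested, and their summed level was 7648 to 9772 TPM in sgRUVBL2 and 8317 to 8740 TPM in sgRosa. In bulk RNA, fewer cells of a kind and less RNA per cell cannot be told apart, and nothing in the labels says that the 4 libraries of a group came from separate infections, so the p-values measure the spread between these libraries.

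The targeted transcript was lower in every sgRUVBL2 library. RUVBL2 (chr19:48993448-49015995 in GRCh38) stood at 50.1, 41.8, 46.3 and 43.9 TPM in sgRUVBL2 replicates 1 to 4 and at 154, 158, 156 and 158 TPM in the sgRosa replicates. The groups were far apart, with log2 difference -1.76 ± 0.10 (SE), adjusted p = 5.04e-10 in limma, and the mean was 29.1% of the control. Its partner RUVBL1 (chr3:128064785-128153914) was lower as well, at 109, 101, 104 and 106 TPM against 156, 161, 149.6 and 150.3 TPM. These groups did not overlap either, with log2 difference -0.55 ± 0.05 (SE), adjusted p = 1.47e-07, although RUVBL1 was not targeted. In sgRUVBL1 cells the order was the mirror image: RUVBL1 stood at 47.3, 44.2 and 41.6 TPM and RUVBL2 at 127, 119 and 137 TPM. Lower RUVBL2 RNA was not confined to the knockouts of the ATPases. Outside sgRUVBL2, its lowest level was in a library of sgCDK1, sgRPA3 or sgKLF5, below every sgRUVBL1 and sgRosa library. Why an untargeted ATPase transcript was lower was not tested. Loss of transcript is no measure of editing, as the KLF5 knockout shows: KLF5 RNA was 565 ± 33.5 TPM (SD, n = 4) in sgKLF5 against 332.4 ± 56.5 TPM in sgRosa.

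**Figure D1:**
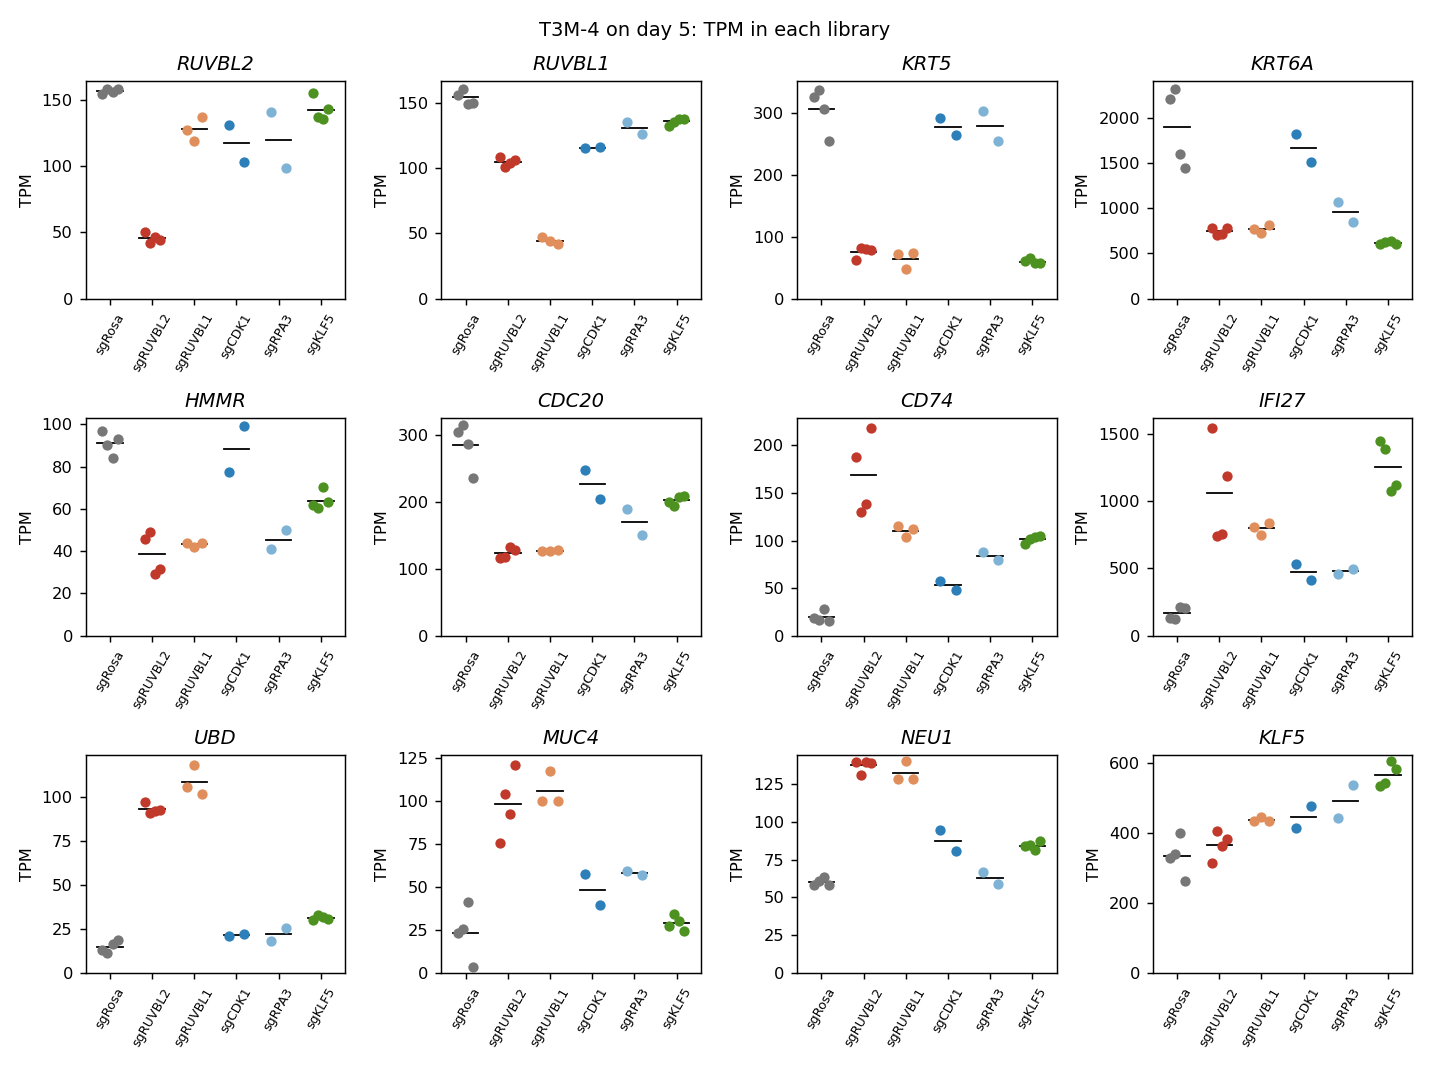
TPM (linear axis from 0) of 12 genes in each of the 19 T3M-4 libraries, by knockout, with 1 point per library and a bar at the group mean. RUVBL2 lay between 41.8 and 50.1 TPM in the 4 sgRUVBL2 libraries and at 98.9 TPM or more in all others, and KRT5 was low in sgRUVBL2, sgRUVBL1 and sgKLF5 but not in sgCDK1 or sgRPA3.

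Against sgRosa, 7209 of 13136 genes (54.9%) passed an adjusted p of 0.05 in limma, 5198 higher (39.6%) and 2011 lower (15.3%) in sgRUVBL2. Of these, 575 rose and 70 fell by more than 1 on the log2(TPM + 1) scale. The median difference over all genes tested was 0.19, so the changes below are to be read against that shift. When the TPM were rescaled by median-of-ratios size factors, which brings the median to 0.02, 7072 genes passed, 3546 higher and 3526 lower. The share of higher genes among those called thereby went from 72.1% to 50.1%. Without sgRosa replicate 4, 6983 genes passed, 4587 higher and 2396 lower, and the median over all genes was 0.11.

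**Figure D2:**
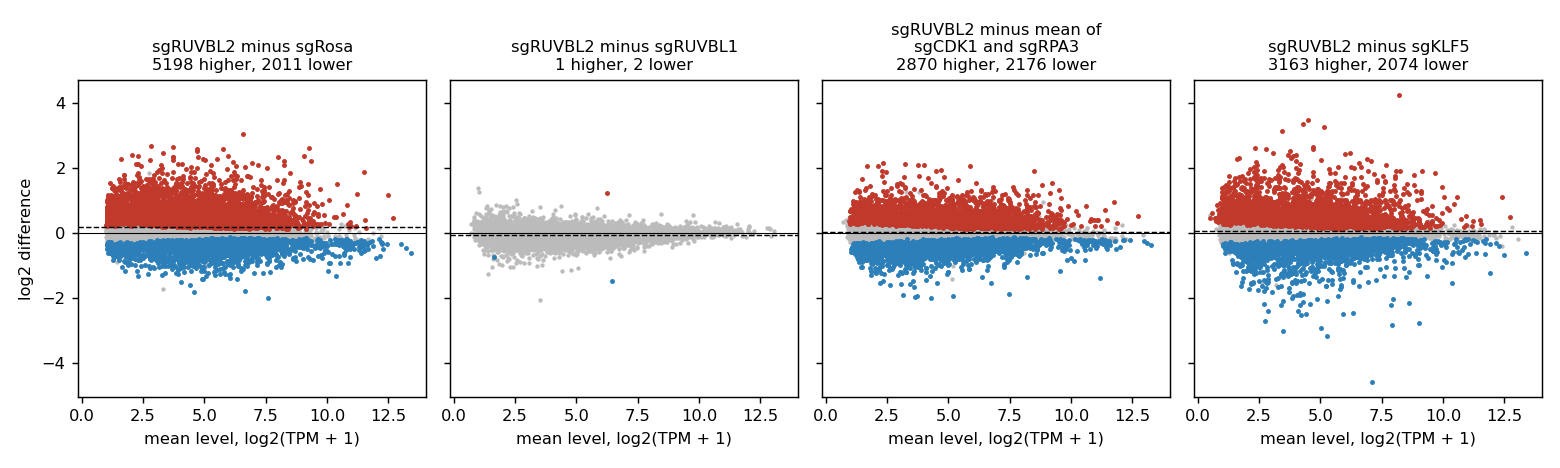
Log2 difference (vertical) against the mean level, log2(TPM + 1), of the 2 groups compared (horizontal) for the 13136 genes tested, in 4 comparisons. Red points passed an adjusted p of 0.05 and were higher in sgRUVBL2, blue points were lower, grey points did not pass, and the dashed line is the median of all genes. The comparison with sgRUVBL1 holds 3 coloured points.

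The largest rises were in genes of antigen presentation, of epithelial defence and of mucosal surfaces. The 12 largest rises with non-overlapping groups and at least 10 TPM were CD74, SAA2-SAA4, DUOXA2, IFI27, UBD, CEACAM7, APOBEC3A, DUOX2, C15orf48, MUC4, HLA-DRB4 and SAA2, with log2 differences from 2.35 to 3.05. CD74, the invariant chain that guides class II molecules of the major histocompatibility complex, stood at 187, 129.9, 139 and 218 TPM in sgRUVBL2 and at 18.8, 16.2, 27.9 and 15.4 TPM in sgRosa. Every knockout library was several-fold above every control, with replicates 1 and 4 above replicates 2 and 3 (log2 difference 3.05 ± 0.16 (SE), adjusted p = 3.82e-10). HLA-DRB4, a class II beta chain, stood at 30.3, 12.2, 13.7 and 28.05 TPM against 3.099, 2.38, 3.93 and 2.72 TPM (log2 difference 2.36 ± 0.21 (SE), adjusted p = 1.20e-07). Reads of HLA-DRB4 and of the other class II beta chains can be split between near-identical sequences, so their single values are uncertain.

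Other class II genes were looked at after these values were seen. HLA-DRA, the shared alpha chain, stood at 70.2, 36.9, 43.7 and 59.6 TPM against 9.05, 7.77, 12.6 and 10.8 TPM (log2 difference 2.25 ± 0.16 (SE), adjusted p = 6.89e-09). HLA-DRB1, HLA-DPA1, HLA-DMA and HLA-DMB also passed, with log2 differences of 2.34, 2.25, 1.45 and 1.25. HLA-DPB1 and HLA-DQB1 were below the level needed for a test. CIITA, the master coactivator of class II genes, was low in both groups, at 1.65, 2.56, 1.88 and 2.51 TPM against 1.21, 1.22, 1.81 and 0.711 TPM, where the groups overlapped, with a difference of 0.50 ± 0.15 (SE, adjusted p = 0.00873).

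The acute-phase genes SAA1 and SAA2 encode serum amyloid A. SAA2 stood at 593, 288, 264 and 561 TPM in sgRUVBL2 and 74.8, 64.4, 103 and 71.7 TPM in sgRosa, and the read-through SAA2-SAA4 at 15.997, 8.85, 7.56 and 12.4 TPM against 1.09, 1.45, 1.17 and 0 TPM. Both rose in every library, and in both replicates 1 and 4 were the highest (log2 differences 2.35 ± 0.21 and 2.69 ± 0.30, SE). These loci share near-identical sequence, so how the reads were divided between them is uncertain. DUOX2 and DUOXA2, the dual oxidase and its maturation factor, are neighbours that make hydrogen peroxide at mucosal surfaces. DUOX2 stood at 15.1, 12.98, 10.4 and 24.2 TPM against 1.63, 1.55, 3.73 and 1.23 TPM, and DUOXA2 at 31.4, 13.3, 13.2 and 28.8 TPM against 1.97, 1.42, 3.27 and 3.201 TPM. The groups did not overlap for either gene.

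UBD, which encodes the ubiquitin-like modifier FAT10, rose evenly, at 96.9, 90.5, 92.1 and 92.3 TPM in sgRUVBL2 and 12.8, 11.1, 16.6 and 18.4 TPM in sgRosa (log2 difference 2.60 ± 0.12 (SE), adjusted p = 9.20e-11). APOBEC3A, a cytidine deaminase of innate defence, stood at 49.4, 38.8, 35.4 and 49.6 TPM against 4.40, 5.66, 9.53 and 7.80 TPM (log2 difference 2.53 ± 0.16 (SE), adjusted p = 2.57e-09). C15orf48, a small mitochondrial protein gene induced in inflammation, stood at 1229.9, 601, 619 and 1155 TPM against 139, 134, 171 and 215 TPM (log2 difference 2.39 ± 0.21 (SE), adjusted p = 6.35e-08). IFI27, an interferon-stimulated gene, stood at 1544, 742, 759 and 1186 TPM against 131.8, 121, 213 and 204 TPM (log2 difference 2.63 ± 0.21 (SE), adjusted p = 3.33e-08). For C15orf48 and IFI27 replicates 1 and 4 were again well above replicates 2 and 3, while all 4 exceeded every control.

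**Figure D3:**
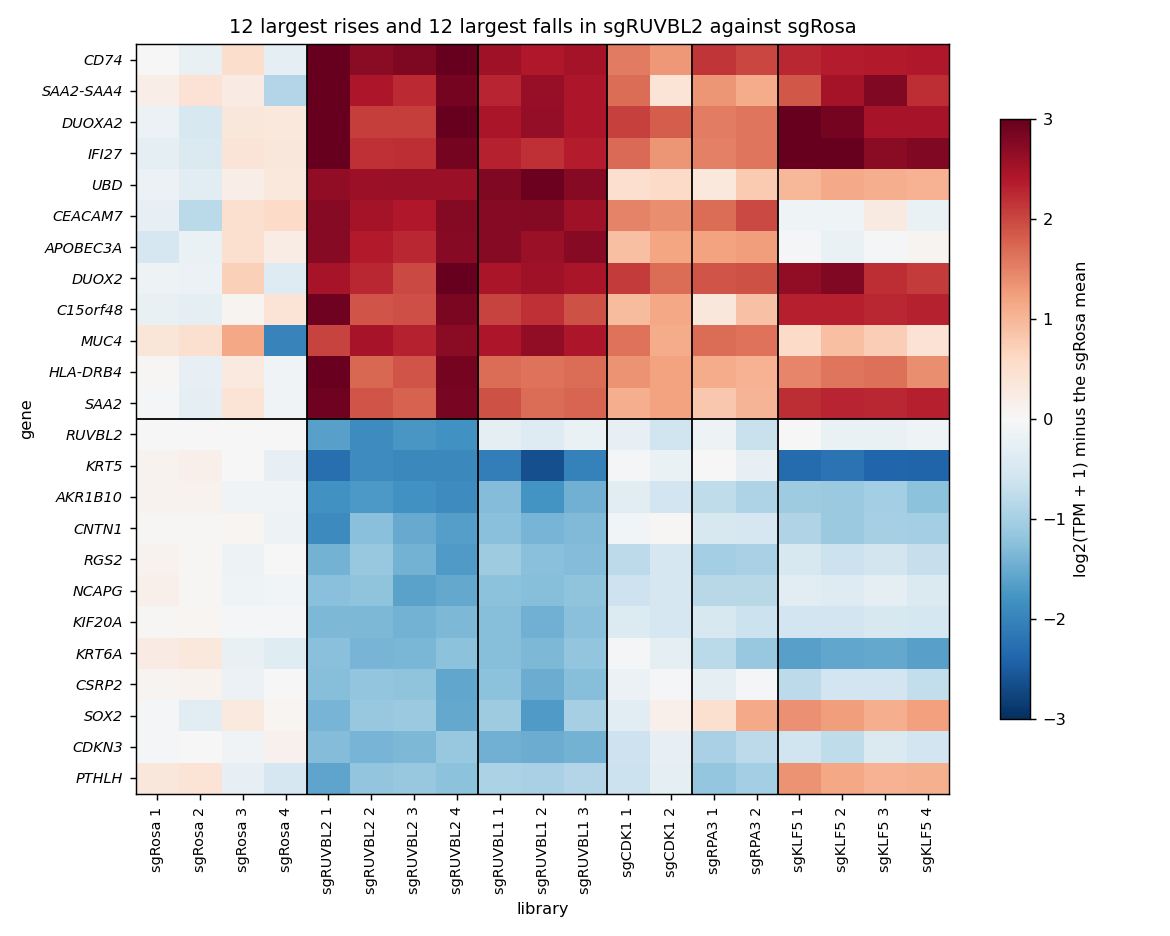
Heatmap of the 12 largest rises and the 12 largest falls in sgRUVBL2 against sgRosa over the 19 T3M-4 libraries. Colour gives log2(TPM + 1) minus the mean of the 4 sgRosa libraries, from -3 (blue) to 3 (red). These genes were chosen on the sgRUVBL2 and sgRosa columns, and the other knockouts are shown beside them.

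The gene lists of these pathways moved together. Of the interferon-stimulated genes, 26 of 31 members rose, 1 fell and 4 did not pass the test (median log2 difference 0.79), beside 39.6% and 15.3% of all genes. The 4 members with the largest differences were IFI27, MX2, IFI6 and IFI44L. MX2, an antiviral GTPase, stood at 62.3, 39.5, 38.2 and 63.6 TPM against 8.14, 7.57, 11.4 and 10.5 TPM (log2 difference 2.3 ± 0.16 (SE), adjusted p = 6.81e-09). IFI6 stood at 738, 341, 337 and 573 TPM against 79.6, 80.4, 139 and 114 TPM (log2 difference 2.21 ± 0.24 (SE), adjusted p = 7.64e-07). Under median-of-ratios scaling the interferon list had 19 and 3 members higher and lower.

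Of the class I and antigen-processing genes, 14 of 15 members rose, 0 fell and 1 did not pass the test (median log2 difference 1.16). HLA-B, a class I heavy chain, stood at 2404, 1622, 1767 and 2207 TPM against 653, 593, 766 and 750.0 TPM (log2 difference 1.52 ± 0.10 (SE), adjusted p = 5.17e-09). TAP1, which carries peptides into the endoplasmic reticulum, stood at 252, 213, 224.8 and 253 TPM against 95.9, 95.4, 112 and 102 TPM (log2 difference 1.21 ± 0.07 (SE), adjusted p = 1.31e-09). HLA-F, a nonclassical class I heavy chain, rose by 1.41. For all 3 genes no sgRUVBL2 library overlapped with a control.

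Of the chemokine and NF-kB target genes, 28 of 29 members rose, 0 fell and 1 did not pass the test (median log2 difference 1.13), and the count was the same under median-of-ratios scaling. ICAM1, an adhesion molecule for leukocytes, stood at 102, 122, 122 and 111.1 TPM against 27.7, 29.9, 36.8 and 26.1 TPM (log2 difference 1.90 ± 0.10 (SE), adjusted p = 3.82e-10). LCN2, the iron-scavenging lipocalin, stood at 5838, 3443, 3540.2 and 5652 TPM against 1016, 966, 1516 and 1413 TPM (log2 difference 1.89 ± 0.16 (SE), adjusted p = 6.06e-08). TNF was at 3.37, 11.3, 10.6 and 3.88 TPM against 0.255, 0.666, 0.558 and 0.257 TPM, and here replicates 2 and 3 were the highest. SAA1 rose by 2.23 ± 0.21 (SE). Of the AP-1 and immediate early genes, 15 of 17 members rose, 0 fell and 2 did not pass the test (median log2 difference 0.65), led by MAFF, a small Maf factor, at 144, 180.2, 173 and 152 TPM against 46.9, 47.5, 52.6 and 39.6 TPM (log2 difference 1.78 ± 0.09 (SE), adjusted p = 2.43e-10).

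Leukocyte markers moved in the same libraries. Of 8 leukocyte markers, 5 were tested and 4 of them rose (median log2 difference 0.69). The other 3 stayed under 1 TPM in all 8 libraries, 2 of them at 0 throughout, among these the B cell marker MS4A1. Their summed level was 90.5 to 119.97 TPM in sgRUVBL2 and 65.0 to 73.4 TPM in sgRosa. CD68 made up most of it, and CD3E stood at 1.13, 3.67, 2.89 and 1.48 TPM against 0.0731, 0, 0.106 and 0.147 TPM. The summed endothelial markers were 9.26 to 13.5 TPM against 3.37 to 6.12 TPM, with 2 of 5 under 1 TPM throughout and all 3 tested members higher. The summed fibroblast markers were 113 to 119.9 TPM against 70.1 to 108 TPM, with 5 of 8 under 1 TPM throughout, and 2 of 3 tested members were higher. Their part in the result was not tested.

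Promoters of these genes are shown because the lists moved together and their textbook regulatory elements can be read in the sequence. The windows hold 250 bases before to 50 after the RefSeq start (GRCh38.p14), 5′ to 3′ on the gene's strand, with each match to the named element in capitals. The interferon element ISRE was searched as GAAA, any 2 bases and GAAA, on both strands, and was in 15 of 24 promoters (62.5%) of the interferon list that had a sequence, against 3.65% of all 27305 promoters. It was also in 7 of 12 promoters (58.3%) of the class I and antigen-processing list. The NF-kB element, searched by the kappaB consensus on both strands, was in 13 of 23 promoters (56.5%) of the chemokine and NF-kB list against 5.72% of all. The class II Y box, searched as CTGATTGG on both strands, was in 4 of 12 promoters (33.3%) of the class I list and 4.16% of all. Of the promoters of CD74 and class II genes, 3 of 7 (42.9%) had it, but the CD74 window held none. The matches describe these letters in these windows and no binding was measured here. Shown are 2 promoters with the ISRE, 1 with the kappaB site and 1 with the Y box.
IFI27, chr14:94110486-94110785, plus strand: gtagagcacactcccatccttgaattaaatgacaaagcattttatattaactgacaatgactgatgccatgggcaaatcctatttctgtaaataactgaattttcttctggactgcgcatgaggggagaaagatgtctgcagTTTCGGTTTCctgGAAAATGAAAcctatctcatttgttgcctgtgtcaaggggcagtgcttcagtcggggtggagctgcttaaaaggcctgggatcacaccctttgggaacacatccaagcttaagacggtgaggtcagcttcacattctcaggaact
IFI6, chr1:27672143-27672442, minus strand: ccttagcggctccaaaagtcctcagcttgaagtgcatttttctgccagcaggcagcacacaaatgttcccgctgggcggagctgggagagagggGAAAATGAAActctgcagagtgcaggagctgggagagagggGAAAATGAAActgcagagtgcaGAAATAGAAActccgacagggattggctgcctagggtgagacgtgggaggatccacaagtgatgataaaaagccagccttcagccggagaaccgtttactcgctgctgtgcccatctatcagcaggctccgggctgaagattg
UBD, chr6:29559683-29559982, minus strand: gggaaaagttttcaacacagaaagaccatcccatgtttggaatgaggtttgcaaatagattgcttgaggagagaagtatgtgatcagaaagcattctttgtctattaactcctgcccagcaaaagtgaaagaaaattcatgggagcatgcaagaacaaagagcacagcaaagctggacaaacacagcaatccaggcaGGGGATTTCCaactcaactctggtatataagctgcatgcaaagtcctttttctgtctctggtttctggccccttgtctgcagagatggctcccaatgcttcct
HLA-DMA, chr6:32953048-32953347, minus strand: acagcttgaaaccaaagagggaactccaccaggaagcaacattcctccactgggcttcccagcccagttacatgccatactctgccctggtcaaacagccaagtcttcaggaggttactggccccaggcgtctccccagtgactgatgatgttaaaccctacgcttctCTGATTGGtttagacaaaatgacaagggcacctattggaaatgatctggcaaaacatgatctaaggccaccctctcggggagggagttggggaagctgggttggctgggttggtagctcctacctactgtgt

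Mucins and surface glycoproteins rose too. Of the mucin, CEACAM and secreted epithelial genes, 12 of 15 members rose, 0 fell and 3 did not pass the test (median log2 difference 1.32). MUC4, a membrane mucin, stood at 75.9, 104, 92.7 and 121 TPM against 23.2, 25.3, 41.2 and 3.67 TPM (log2 difference 2.38 ± 0.43 (SE), adjusted p = 1.70e-04). The lowest control was sgRosa replicate 4, and without that library the difference was 1.71. MUC1 and MUC20 rose by 2.06 and 2.09, and in both sgRosa replicate 4 was the lowest control, at 7.74 TPM for MUC1 against 33.98 to 58.2 TPM in the other 3. CEACAM7, an adhesion molecule of the intestinal surface, stood at 47.04, 40.1, 37.6 and 48.1 TPM against 5.08, 3.16, 9.12 and 9.87 TPM (log2 difference 2.60 ± 0.22 (SE), adjusted p = 5.04e-08).

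The largest falls held keratins, mitotic genes and a few secreted or neuronal-type genes. The 12 were RUVBL2, KRT5, AKR1B10, CNTN1, RGS2, NCAPG, KIF20A, KRT6A, CSRP2, SOX2, CDKN3 and PTHLH, with log2 differences from -2.00 to -1.29. KRT5, the keratin of basal cells of stratified epithelia (chr12:52514575-52520394), stood at 62.9, 81.9, 79.4 and 78.5 TPM in sgRUVBL2 and 325, 337, 305 and 255 TPM in sgRosa. It was the largest fall of all, log2 difference -2.00 ± 0.12 (SE), adjusted p = 1.93e-09. KRT6A, a keratin of activated keratinocytes, stood at 784, 705, 711 and 785 TPM against 2209, 2321, 1604 and 1445 TPM (log2 difference -1.32 ± 0.12 (SE), adjusted p = 1.55e-07). KRT14, the partner of KRT5 in basal filaments, stood at 76.5, 73.4, 82.0 and 71.4 TPM against 201, 218, 147 and 153 TPM (log2 difference -1.22 ± 0.12 (SE), adjusted p = 3.86e-07). In each case the groups were separate, and the controls varied more than the knockouts.

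Not all keratins fell. Of the stratified epithelial keratins, 3 of 14 members rose, 8 fell and 3 did not pass the test (median log2 difference -0.30). KRT80 went the other way, at 22.4, 39.8, 36.0 and 28.3 TPM against 12.9, 14.4, 11.01 and 6.35 TPM (log2 difference 1.44 ± 0.19 (SE), adjusted p = 8.27e-06). KRT4, a keratin of the oesophagus, fell by 0.83 and KRT17, a stress keratin, by 0.29 on the log2 scale. KRT17 remained among the most abundant transcripts, at 2138, 2057, 2153 and 1949 TPM against 2671, 2810.1, 2525 and 2167 TPM. KRT6A, KRT6B and KRT6C share near-identical sequence, so the split between them is uncertain. Of the simple epithelial keratins, 2 of 6 rose and 2 fell, with KRT23 at 1.68 and KRT19 at -0.31.

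Further genes named by the study or by the rules on size were mostly lower. S100A2, a calcium-binding protein of basal and squamous cells, stood at 760.0, 558, 625 and 639 TPM against 1543, 1595, 1189 and 1496 TPM (log2 difference -1.17 ± 0.12 (SE), adjusted p = 3.44e-07). SERPINB5, which encodes maspin and which the study uses as a reporter of KLF5, stood at 81.1, 92.4, 83.8 and 83.5 TPM against 138, 141, 113 and 114 TPM (log2 difference -0.56 ± 0.08 (SE), adjusted p = 1.09e-05). TP63, the squamous lineage factor, stood at 49.8, 77.2, 66.1 and 68.5 TPM against 96.9, 99.9, 109 and 66.6 TPM, with overlapping libraries (log2 difference -0.50 ± 0.13 (SE), adjusted p = 0.00402). FAM83A, a signalling scaffold, was higher instead, at 186, 199.8, 191 and 239.7 TPM against 130.1, 139, 142 and 73.6 TPM (log2 difference 0.79 ± 0.16 (SE), adjusted p = 4.35e-04). PTHLH, the parathyroid hormone-like peptide, and NRG1, a ligand of ERBB receptors, fell by 1.29 and 1.18.

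KLF5 RNA itself did not pass the test. It stood at 312, 404, 362 and 383 TPM in sgRUVBL2 and 329, 339, 399.8 and 262 TPM in sgRosa, overlapping groups with log2 difference 0.15 ± 0.11 (SE), adjusted p = 0.253. MYC stood at 80.8, 97.4, 95.4 and 97.6 TPM against 87.2, 91.8, 109.7 and 66.1 TPM (log2 difference 0.08 ± 0.11 (SE), adjusted p = 0.543), and TAF1D, a subunit of the RNA polymerase I factor SL1, gave -0.06 ± 0.11 (adjusted p = 0.685). For KLF5 the 95% interval of the difference ran from -0.08 to 0.37, and for MYC from -0.15 to 0.32. Under median-of-ratios scaling the sign turned for both, to -0.04 and -0.10.

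SOX2, a stem cell and squamous factor, stood at 4.11, 5.13, 5.29 and 3.67 TPM against 12.1, 9.88, 15.6 and 13.1 TPM (log2 difference -1.30 ± 0.18 (SE), adjusted p = 1.21e-05). AKR1B10, an aldo-keto reductase of retinal and lipid aldehydes, stood at 9.40, 10.2, 9.38 and 8.86 TPM against 38.6, 38.2, 33.2 and 33.0 TPM (log2 difference -1.81 ± 0.10 (SE), adjusted p = 6.76e-10). CNTN1, a neuronal cell adhesion molecule, stood at 7.45, 12.5, 10.2 and 9.26 TPM against 31.9, 32.02, 32.4 and 27.9 TPM (log2 difference -1.58 ± 0.11 (SE), adjusted p = 5.20e-09). For all 3 the groups were separate. RGS2, a brake on G protein signalling, and CSRP2, a LIM domain protein, fell by 1.42 and 1.31, again without overlap.

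Genes of the cell cycle were lower as a body. Of the G2/M genes, 0 of 54 members rose, 51 fell and 3 did not pass the test (median log2 difference -0.85), and of the S phase genes, 0 of 42 members rose, 40 fell and 2 did not pass the test (median log2 difference -0.56). KIF20A, a kinesin of cytokinesis, stood at 36.5, 36.8, 34.7 and 36.9 TPM against 96.7, 98.5, 92.9 and 91.8 TPM (log2 difference -1.37 ± 0.06 (SE), adjusted p = 3.64e-11). NCAPG, a condensin subunit, stood at 17.4, 17.9, 13.5 and 14.2 TPM against 47.98, 44.3, 39.5 and 40.6 TPM (log2 difference -1.40 ± 0.09 (SE), adjusted p = 2.00e-09). RRM2, the ribonucleotide reductase subunit that makes DNA precursors in S phase, stood at 49.5, 58.4, 55.1 and 59.6 TPM against 139, 140.1, 115.8 and 105 TPM (log2 difference -1.15 ± 0.08 (SE), adjusted p = 8.21e-09). HMMR, a spindle assembly factor, stood at 45.7, 48.9, 29.4 and 31.5 TPM against 96.9, 90.4, 84.4 and 92.97 TPM (log2 difference -1.24 ± 0.13 (SE), adjusted p = 7.04e-07). All of these were separate between the groups. CENPE and CENPF, the members with the largest fitted falls, were uneven: CENPE stood at 13.03, 17.3, 2.36 and 2.84 TPM against 14.5, 36.7, 12.7 and 25.2 TPM, so the groups overlapped.

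CDC20, the activator of the anaphase-promoting complex, was chosen after its values were seen and stood at 115.6, 118, 132.1 and 128 TPM against 305, 315, 287 and 236 TPM (log2 difference -1.20 ± 0.09 (SE), adjusted p = 1.34e-08). The CHR element of late cell cycle genes was searched as TTTGAA on both strands in the same promoter windows. It was in 31 of 45 promoters (68.9%) of the G2/M list, in 1 of 33 promoters (3.03%) of the S phase list and in 15.4% of all promoters. HMMR and CDC20 are shown with their matches in capitals, while the KIF20A window held none.
HMMR, chr5:163460382-163460681, plus strand: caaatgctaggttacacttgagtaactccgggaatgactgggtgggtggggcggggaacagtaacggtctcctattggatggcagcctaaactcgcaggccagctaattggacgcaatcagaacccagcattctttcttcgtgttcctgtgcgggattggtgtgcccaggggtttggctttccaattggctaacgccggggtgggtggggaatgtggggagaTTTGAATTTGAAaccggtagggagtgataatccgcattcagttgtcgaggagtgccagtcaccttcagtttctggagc
CDC20, chr1:43358731-43359030, plus strand: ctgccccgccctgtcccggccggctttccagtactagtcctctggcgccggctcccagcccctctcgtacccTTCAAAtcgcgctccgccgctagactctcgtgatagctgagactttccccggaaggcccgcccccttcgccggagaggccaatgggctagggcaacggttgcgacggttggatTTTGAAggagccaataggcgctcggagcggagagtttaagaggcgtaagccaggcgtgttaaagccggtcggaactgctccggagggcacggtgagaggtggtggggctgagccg

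Other lists tied to division and growth went the same way. Of the homologous recombination and Fanconi genes, 0 of 26 members rose, 17 fell and 9 did not pass the test (median log2 difference -0.35). Of the cytosolic ribosomal protein genes, 0 of 76 members rose, 65 fell and 11 did not pass the test (median log2 difference -0.32), with RPS2 at 3068, 2984, 3416 and 2639 TPM against 4659, 4798, 4951 and 6133 TPM. Together these genes took 135160 to 156243 TPM in sgRUVBL2 and 170220 to 217119 TPM in sgRosa, and the highest control was replicate 4. Without sgRosa replicate 4, 51 of 76 were lower. Of the mitochondrial ribosomal protein genes, 0 of 42 members rose, 25 fell and 17 did not pass the test (median log2 difference -0.22).

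The transcripts of the complexes that RUVBL2 helps to build were less uniform, beside 39.6% of all genes higher and 15.3% lower (median 0.19). Of the R2TP and PAQosome genes, 4 of 17 members rose, 6 fell and 7 did not pass the test (median log2 difference -0.10). Those that fell were RUVBL2, C12orf45, RUVBL1, PIH1D1, PFDN2 and UXT. PIH1D1, the R2TP subunit that recruits clients, stood at 64.6, 55.7, 62.4 and 61.1 TPM against 83.8, 82.1, 89.1 and 97.5 TPM (log2 difference -0.52 ± 0.08 (SE), adjusted p = 1.91e-05). C12orf45, the older name of the small nucleolar RNP assembly factor NOPCHAP1, stood at 11.1, 12.4, 17.5 and 10.9 TPM against 22.9, 19.97, 18.2 and 18.3 TPM (log2 difference -0.60 ± 0.11 (SE), adjusted p = 3.22e-04). Of the INO80, SRCAP and TIP60 subunits, 12 of 30 members rose, 5 fell and 13 did not pass the test (median log2 difference 0.15), near the share of all genes, and 8 and 8 were higher and lower under median-of-ratios scaling. YEATS4, a histone reader of TIP60 and SRCAP, fell by 0.53, and TFPT, an INO80 subunit, rose by 0.59.

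Of the TTT adaptor and PI3K-like kinase genes, 1 of 9 members rose, 1 fell and 7 did not pass the test (median log2 difference -0.02). Under median-of-ratios scaling 0 and 5 were higher and lower (median -0.20), and 0 and 6 with sgRosa replicate 4 also left out (median -0.28). PRKDC, the DNA-dependent protein kinase, stood at 49.7, 88.8, 64.9 and 70.9 TPM against 93.9, 108, 112 and 74.2 TPM (log2 difference -0.51 ± 0.14 (SE), adjusted p = 0.00544). SMG1, the kinase of nonsense-mediated decay, rose by 0.50 ± 0.20 (SE, adjusted p = 0.0431) but lost the call in 9 alternatives, with a difference of 0.31 without sgRUVBL2 replicate 2 and 0.29 without sgRosa replicate 4. Of the RNA polymerase II subunit and assembly genes, 5 of 17 members rose, 2 fell and 10 did not pass the test (median log2 difference 0.08). Both shares were below those of all genes, 39.6% higher and 15.3% lower. The list was led by POLR2C at 0.55 ± 0.07 (SE). Of the box C/D and H/ACA snoRNP genes, 0 of 10 members rose, 5 fell and 5 did not pass the test (median log2 difference -0.12). FBL, the methyltransferase fibrillarin, stood at 178, 176, 192 and 153 TPM against 312, 288, 287 and 347 TPM (log2 difference -0.82 ± 0.07 (SE), adjusted p = 9.55e-08).

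Of the ribosome biogenesis genes, 2 of 30 members rose, 18 fell and 10 did not pass the test (median log2 difference -0.27). NPM1, nucleophosmin, stood at 1462, 1469, 1497 and 1403 TPM against 2531, 2413, 2160.0 and 2631 TPM (log2 difference -0.74 ± 0.08 (SE), adjusted p = 7.11e-07). Of the CCT chaperonin genes, 0 of 8 members rose, 8 fell and 0 did not pass the test (median log2 difference -0.34), with CCT5 at -0.45 ± 0.05 (SE). Of the heat shock and HSP90 genes with values, 2 of 11 members rose, 6 fell and 3 did not pass the test (median log2 difference -0.32). HSP90AB1, the constitutive HSP90, stood at 1583, 1606, 1638 and 1678 TPM against 2441, 2349.5, 2116 and 2271 TPM (log2 difference -0.49 ± 0.05 (SE), adjusted p = 1.74e-07). FKBP4, an HSP90 co-chaperone, fell by 0.73. The glycolytic enzymes GAPDH and ENO1, which are among the most abundant transcripts, fell by 0.61 and 0.62, while the glycolysis and hypoxia list as a whole had 9 higher and 4 lower of 21, and 7 and 10 under median-of-ratios scaling.

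Stress and clearance genes were partly higher. Of the lysosome and autophagy genes, 24 of 27 members rose, 0 fell and 3 did not pass the test (median log2 difference 0.52), and 18 and 1 were higher and lower under median-of-ratios scaling. NEU1, lysosomal sialidase, stood at 139.9, 131, 139 and 139 TPM against 58.1, 60.7, 63.3 and 57.9 TPM (log2 difference 1.18 ± 0.06 (SE), adjusted p = 3.43e-10). GABARAPL1, an autophagosome protein, stood at 131, 163, 156 and 138 TPM against 61.5, 57.6, 78.5 and 71.4 TPM (log2 difference 1.12 ± 0.09 (SE), adjusted p = 2.42e-08). Of the BCL2 family, 13 of 15 members rose, 0 fell and 2 did not pass the test (median log2 difference 0.44), with the survival factor BCL2A1 at 33.6, 20.6, 21.9 and 28.9 TPM against 3.26, 6.56, 6.81 and 4.57 TPM (log2 difference 2.13 ± 0.18 (SE), adjusted p = 5.51e-08). Of the replication-dependent histones, 12 of 16 members rose, 0 fell and 4 did not pass the test (median log2 difference 0.60). HIST2H2AA3 and HIST2H2AA4 are identical copies with the same values and amount to 1 measurement, but the counts here take each name separately. Libraries were selected for poly-A RNA, in which most histone transcripts are poorly captured.

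Of the p53 target genes, 13 of 29 members rose, 3 fell and 13 did not pass the test (median log2 difference 0.19), near the background of all genes, and 11 and 8 were higher and lower under median-of-ratios scaling. PLK3, TP53INP1 and GDF15 rose by 1.57, 1.44 and 0.95. CDKN1A, the p21 inhibitor of cyclin-dependent kinases, was added after its values were seen and stood at 133, 149, 156 and 138 TPM against 85.4, 89.0, 95.5 and 81.3 TPM (log2 difference 0.71 ± 0.07 (SE), adjusted p = 2.47e-07). Of the ATF4 and integrated stress response genes, 7 of 25 members rose, 11 fell and 7 did not pass the test (median log2 difference 0.06). PPP1R15A and CHAC1, which act in this response, rose by 1.22 and 1.17, and DDIT4 fell by 0.93. Of the cholesterol and fatty acid synthesis genes, 2 of 30 members rose, 17 fell and 11 did not pass the test (median log2 difference -0.24), with FADS1, a fatty acid desaturase, at -0.78 ± 0.12 (SE).

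**Figure D4:**
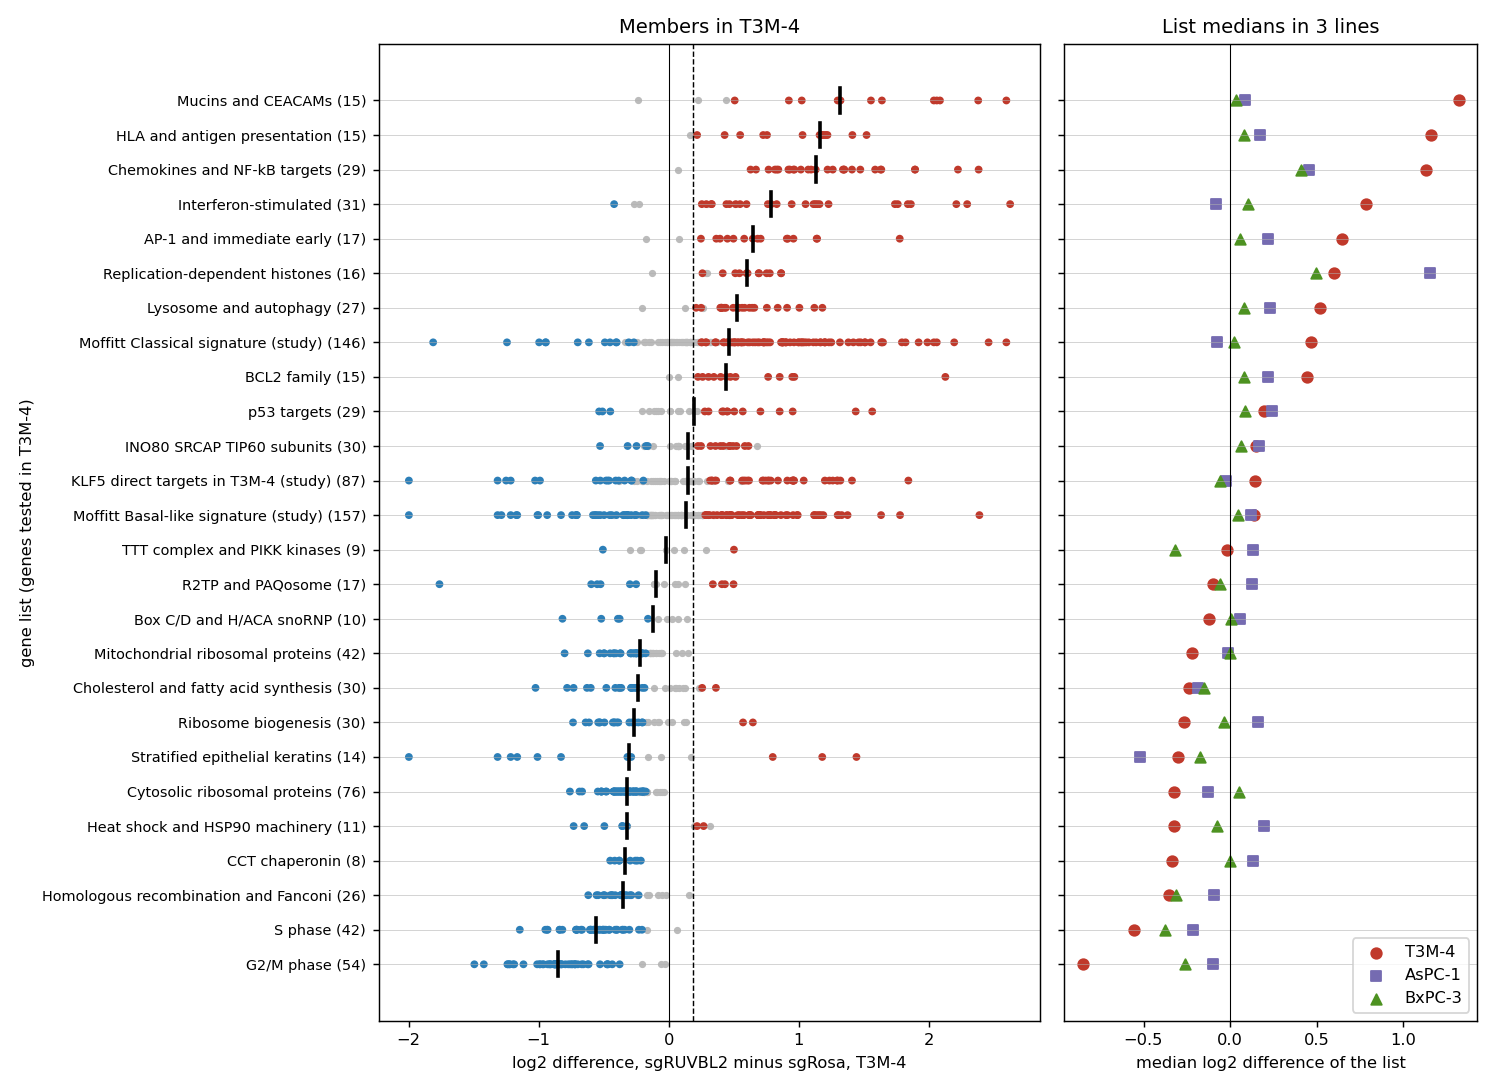
Left, log2 difference of each tested member of 26 gene lists in T3M-4, sgRUVBL2 minus sgRosa, with called members in red (higher) or blue (lower), others in grey, a black bar at the list median and a dashed line at the median of all genes (0.19). Right, the median of each list in T3M-4, AsPC-1 and BxPC-3, each from its own fit. The G2/M list had the lowest median in T3M-4 (-0.85) and the mucin and CEACAM list the highest (1.32).

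Subtype signatures taken from the study were also counted. Of the Moffitt Classical genes, 82 of 146 members rose, 13 fell and 51 did not pass the test (median log2 difference 0.47), and of the Moffitt Basal-like genes, 59 of 157 members rose, 34 fell and 64 did not pass the test (median log2 difference 0.14). Over all genes 39.6% were higher and 15.3% lower (median 0.19), so the Basal-like share of higher genes was near the background. Under median-of-ratios scaling the Basal-like list had 46 and 53 higher and lower. Classical members with large differences were CEACAM7, DUOX2 and PDZK1IP1, and KRT5 and KRT6A are among the Basal-like ones. Of the genes that the study calls direct KLF5 targets in T3M-4, 34 of 87 members rose, 17 fell and 36 did not pass the test (median log2 difference 0.15), shares near those of all genes, and 29 and 27 were higher and lower under median-of-ratios scaling. The study chose that list in T3M-4 cells by loss of newly made RNA soon after KLF5 degradation, with KLF5 binding nearby. No library used here entered that choice, but total RNA on day 5 is an unlike measure and time. IGFL1, an insulin growth factor-like ligand on that list, rose, at 583, 549, 591 and 519 TPM against 164, 159, 148 and 151 TPM (log2 difference 1.84 ± 0.09 (SE), adjusted p = 9.98e-11). TIMP2, a metalloproteinase inhibitor, stood at 185, 255, 241 and 278 TPM against 124, 128, 118 and 42.2 TPM (log2 difference 1.32 ± 0.25 (SE), adjusted p = 2.73e-04), with sgRosa replicate 4 the lowest.

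Transcription factors of the epithelium were mixed, beside 39.6% of all genes higher and 15.3% lower. Of the basal and squamous factors, 6 of 14 members rose, 3 fell and 5 did not pass the test (median log2 difference 0.20), and of the epithelial and endodermal factors, 8 of 17 members rose, 2 fell and 7 did not pass the test (median log2 difference 0.30). ELF3, an ETS factor of secretory epithelia, stood at 367, 367, 354 and 398 TPM against 152, 150.3, 199 and 129 TPM (log2 difference 1.25 ± 0.11 (SE), adjusted p = 7.49e-08). GRHL3, SOX9 and FOXA1 rose by 1.2, 1.05 and 1.01. OVOL1, a zinc finger factor of suprabasal differentiation, stood at 49.8, 54.5, 54.1 and 52.6 TPM against 29.6, 32.01, 29.3 and 19.8 TPM (log2 difference 0.93 ± 0.11 (SE), adjusted p = 2.70e-06). Of the KLF family, 5 of 13 members rose, 0 fell and 8 did not pass the test (median log2 difference 0.15), and 3 and 2 were higher and lower under median-of-ratios scaling.

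Further lists are given by their counts, beside 39.6% of all genes higher and 15.3% lower (median 0.19). MAPK feedback genes had 10 higher and 1 lower of 15 (median 0.38), and EPHA2, an ephrin receptor, and DUSP1, a MAP kinase phosphatase, rose by 1.01 and 1.03. EGF receptor family genes had 5 higher and 2 lower of 12 (median 0.32), and HBEGF, a ligand, rose by 1.12. MYC family and target genes had 4 higher and 7 lower of 17 (median -0.28). Mesenchymal genes had 10 higher and 0 lower of 18 (median 0.51). Cornified envelope genes had 7 higher and 5 lower of 26 (median 0.21), laminin and hemidesmosome genes 3 higher and 3 lower of 10 (median -0.06), clade B serpins 5 higher and 3 lower of 11 (median 0.26) and S100 genes 5 higher and 7 lower of 15 (median -0.09). BMP and TGF-beta genes had 7 higher and 3 lower of 19 (median 0.12), and Notch genes 2 higher and 2 lower of 15 (median 0.04). Unfolded protein response genes had 5 higher and 3 lower of 15 (median 0.02), antioxidant genes 5 higher and 3 lower of 18 (median 0.06), proteasome genes 1 higher and 6 lower of 31 (median -0.03), and small nucleolar host and decay-sensitive genes 8 higher and 3 lower of 15 (median 0.26). Under median-of-ratios scaling the numbers higher and lower were 4 and 4 for the small nucleolar host list, 3 and 8 for the unfolded protein response, 3 and 5 for the antioxidant list and 0 and 14 for the proteasome. They were 10 and 4 for the mesenchymal list, 6 and 6 for the cornified envelope, 6 and 6 for BMP and TGF-beta, 2 and 4 for Notch, 2 and 7 for S100 and 2 and 5 for the laminin list. Of lists given above, they were 3 and 4 for RNA polymerase II, 5 and 11 for the integrated stress response and 6 and 6 for the basal and squamous factors. This scaling turned the sign of the median for the Notch, antioxidant and unfolded protein response lists here, and above for the integrated stress response, glycolysis, RNA polymerase II, INO80, KLF family, Basal-like and KLF5 target lists.

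The comparison with sgRUVBL1 asks whether loss of either ATPase leaves the same transcriptome. No control library enters the difference itself, though the sgRosa libraries are part of the fitted spread and of the gene filter. Only 3 of 13136 genes (0.0228%) passed an adjusted p of 0.05 in limma, against 1479 at an unadjusted p under 0.05. They were the targets themselves, RUVBL2 (log2 difference -1.47 ± 0.10 (SE), adjusted p = 3.43e-07) and RUVBL1 (log2 difference 1.23 ± 0.05 (SE), adjusted p = 3.49e-10), and RELN, which was named after its values were seen. RELN, the secreted glycoprotein reelin, was near the limit of the filter, at 0.950, 1.64, 1.36 and 1.52 TPM in sgRUVBL2 and 2.89, 2.97 and 2.83 TPM in sgRUVBL1 (log2 difference -0.73 ± 0.11 (SE), adjusted p = 0.0117). For 97.9% of genes the 95% interval of the difference lay within 1 on the log2 scale, and for 73.5% within 0.5. The count rested on sgRUVBL2 replicate 2: without it, 307 genes passed, 46 higher and 261 lower in sgRUVBL2.

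Genes that led the comparison with sgRosa showed small differences between the 2 ATPase knockouts. KRT5 stood at 71.6, 47.8 and 73.3 TPM in sgRUVBL1, and sgRUVBL2 differed from it by 0.25 (95% interval -0.03 to 0.53). KIF20A differed by -0.04 (95% interval -0.18 to 0.09) and UBD by -0.22 (95% interval -0.49 to 0.06). CD74 stood at 115, 104 and 113 TPM in sgRUVBL1, below the sgRUVBL2 libraries, and differed by 0.57 (95% interval 0.21 to 0.94, adjusted p = 0.428), which did not pass. The intervals do not show that the knockouts act alike. The G2/M list had a median of -0.07, the interferon list 0.02 and the class I and antigen-processing list 0.17, beside -0.07 over all genes, with no list member called other than the targets.

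The comparison with the mean of sgCDK1 and sgRPA3 sets the knockout beside the loss of other genes that dividing cells need. Of 13136 genes, 5046 passed (38.4%), 2870 higher (21.8%) and 2176 lower (16.6%), with a median of 0.03 over all genes. The 5 largest excesses were TGIF2-C20orf24, IL24, RND1, UBD and HSD11B1. UBD stood at 20.99 and 21.99 TPM in sgCDK1 and 18.1 and 25.5 TPM in sgRPA3, far below the 90.5 to 96.9 TPM of sgRUVBL2 (log2 difference 2.06 ± 0.12 (SE), adjusted p = 4.51e-09). RND1, which loosens cell adhesion, stood at 21.5, 20.8, 21.7 and 19.8 TPM in sgRUVBL2, 3.90 and 3.98 TPM in sgCDK1 and 4.59 and 4.22 TPM in sgRPA3 (log2 difference 2.09 ± 0.09 (SE), adjusted p = 2.21e-10). IL24, a cytokine of the IL-10 family, stood at 20.03, 28.02, 30.6 and 20.9 TPM in sgRUVBL2 against 6.85 and 5.88 TPM in sgCDK1 and 4.30 and 3.49 TPM in sgRPA3 (log2 difference 2.09 ± 0.14 (SE), adjusted p = 1.43e-08). HSD11B1, which regenerates cortisol, stood at 48.8, 29.2, 31.3 and 52.2 TPM against 12.2 and 13.1 TPM in sgCDK1 and 6.98 and 6.79 TPM in sgRPA3 (log2 difference 1.95 ± 0.15 (SE), adjusted p = 8.09e-08). TGIF2-C20orf24, a read-through of neighbouring genes, ranged from 0 to 10.8 TPM in those 4 libraries and lost its call in 3 alternatives, among them without sgCDK1 replicate 2 (1.52) and without sgRPA3 replicate 1 (1.66), beside 2.14 with all libraries.

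The 5 largest deficits were DAPL1, BMP7, ABO, FAT2 and TNNT3. Against sgRosa, DAPL1, BMP7 and FAT2 fell in sgRUVBL2, by 0.85, 0.81 and 0.84, while ABO and TNNT3 did not pass, and FAT2 lost that call in 7 alternatives. TNNT3, a fast muscle troponin, stood at 3.17, 2.62, 3.01 and 2.08 TPM in sgRUVBL2 and 3.49, 3.39, 5.28 and 2.82 TPM in sgRosa, but at 12.2 and 10.8 TPM in sgCDK1 and 14.02 and 14.1 TPM in sgRPA3. BMP7, a bone morphogenetic ligand, stood at 4.06, 3.85, 3.41 and 4.97 TPM, 6.88, 6.65, 10.1 and 8.17 TPM, 17.5 and 14.1 TPM and 23.1 and 20.4 TPM in the same order (log2 difference -1.95 ± 0.12 (SE), adjusted p = 6.36e-09). ABO, the blood group glycosyltransferase, and FAT2, a giant cadherin, differed by -1.93 and -1.92, and DAPL1 by -1.98.

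KRT5 was the clearest of the basal genes in this comparison. It stood at 291 and 264 TPM in sgCDK1 and 303 and 254 TPM in sgRPA3, against 62.9 to 81.9 TPM in sgRUVBL2 (log2 difference -1.87 ± 0.12 (SE), adjusted p = 1.19e-08). KRT14 and KRT6A differed by -0.61 ± 0.12 and -0.75 ± 0.12, S100A2 by -0.51 ± 0.12 and TP63 by -1.01 ± 0.13 (SE). In the stratified keratin list 3 of 14 were higher and 9 lower. The cell cycle lists were also lower than in these knockouts, with 43 of 54 G2/M genes (median -0.50) and 28 of 42 S phase genes (median -0.36). Some lists that fell against sgRosa had few lower members here, beside 21.8% of all genes higher and 16.6% lower. CCT chaperonin genes had 1 higher and 0 lower of 8 (median 0.05), and snoRNP genes 1 and 2 of 10 (median 0.007). Heat shock and HSP90 genes had 2 and 2 of 11 (median -0.03), and ribosome biogenesis genes 5 and 4 of 30 (median -0.10). Cytosolic ribosomal protein genes stayed lower, with 0 higher and 38 lower of 76 (median -0.21). Chemokine and NF-kB genes had 25 of 29 higher and 0 lower (median 0.72). Class I and antigen-processing genes had 8 higher and 0 lower of 15 (median 0.52). Their summed level was 10759 to 11632 TPM in sgCDK1 and sgRPA3, 14018 to 19039 TPM in sgRUVBL2 and 6475 to 7911 TPM in sgRosa. Interferon-stimulated genes had 4 higher and 3 lower of 31 (median 0.14), shares below those of all genes. IFI6 stood at 301 and 345 TPM in sgCDK1 and 245 and 458 TPM in sgRPA3, and its difference of 0.51 ± 0.24 (SE, adjusted p = 0.0963) did not pass.

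The comparison with sgKLF5 asks where loss of RUVBL2, which the study calls a coactivator of KLF5, and loss of KLF5 differ. Of 13136 genes, 5237 passed (39.9%), 3163 higher (24.1%) and 2074 lower (15.8%). Under median-of-ratios scaling 2741 were higher and 2861 lower. KRT5, low in both, stood at 60.1, 64.9, 57.3 and 56.7 TPM in sgKLF5 and was a little higher in sgRUVBL2, with a difference of 0.33 ± 0.12 (SE, adjusted p = 0.0418) that passed narrowly. KRT6A stood at 599, 629, 637 and 600.3 TPM and differed by 0.27 ± 0.12 (SE, adjusted p = 0.0842), which did not pass. KRT14, KRT4 and KRT17 were lower in sgKLF5 than in sgRUVBL2, by 1.56, 1.45 and 1.13 on the log2 scale. S100A2 was the reverse, at 1578, 1359.8, 1115 and 1233 TPM in sgKLF5 (log2 difference -1.03 ± 0.12 (SE), adjusted p = 1.81e-06). SOX2 and PTHLH, both low in sgRUVBL2, stood at 34.02, 31.2, 27.8 and 30.5 TPM and 152, 134, 123 and 124 TPM in sgKLF5, with differences of -2.53 ± 0.18 and -2.44 ± 0.16 (SE).

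The 5 genes most in excess over sgKLF5 were IGFL1, HSD11B1, KISS1, UPK2 and LYPD2. IGFL1 stood at 22.7, 31.0, 29.0 and 31.0 TPM in sgKLF5, against 519 to 591 TPM in sgRUVBL2 (log2 difference 4.26 ± 0.09 (SE), adjusted p = 5.02e-16). KISS1, the metastasis suppressor peptide, stood at 2.21, 1.61, 2.50 and 3.79 TPM in sgKLF5 and 36.9, 34.6, 37.7 and 28.6 TPM in sgRUVBL2 (log2 difference 3.36 ± 0.19 (SE), adjusted p = 4.28e-10). UPK2, a uroplakin of the urothelium, and LYPD2 differed by 3.27 and 3.14. The 5 most in deficit were MMP13, CSF3, PRR16, DEFB4A and PTGS2. MMP13, a collagenase, stood at 271, 254, 267 and 247 TPM in sgKLF5 and 8.34, 12.8, 10.9 and 8.005 TPM in sgRUVBL2 (log2 difference -4.59 ± 0.20 (SE), adjusted p = 2.07e-11). PTGS2, the inducible cyclooxygenase, stood at 427, 386, 442 and 448 TPM against 47.6, 68.5, 56.4 and 65.6 TPM (log2 difference -2.83 ± 0.12 (SE), adjusted p = 2.07e-11). CSF3, a growth factor of granulocytes, and DEFB4A, a beta defensin, differed by -3.15 and -2.92.

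The study's direct KLF5 targets had 73 of 87 genes higher in sgRUVBL2 than in sgKLF5, 0 lower and a median of 0.93. The study chose them for lower new RNA on KLF5 degradation, so this direction was likely beforehand. Cornified envelope genes had 18 higher and 1 lower of 26 (median 1.26), and mucin and CEACAM genes 12 and 2 of 15 (median 1.44). CEACAM7 and APOBEC3A stood at 5.67, 5.61, 7.69 and 5.34 TPM and 6.38, 5.56, 6.29 and 6.98 TPM in sgKLF5, with differences of 2.65 ± 0.22 and 2.59 ± 0.16 (SE). The chemokine and NF-kB list had 10 higher and 12 lower of 29 (median -0.07). Its summed level was 12207 to 12701 TPM in sgKLF5 and 7420 to 10375 TPM in sgRUVBL2. Class I and antigen-processing genes had 7 higher and 0 lower of 15 (median 0.29). Interferon-stimulated genes had 4 higher and 11 lower of 31 (median -0.24). IFI27 stood at 1448, 1384, 1073 and 1116 TPM in sgKLF5 and did not differ past the threshold (log2 difference -0.30 ± 0.21 (SE), adjusted p = 0.276). The G2/M genes had 46 of 54 lower in sgRUVBL2 (median -0.41).

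The same knockout was made in AsPC-1 (4 sgRUVBL2 and 4 sgRosa libraries) and BxPC-3 (3 and 4 libraries), both established pancreatic cancer lines, and each was fitted in its own experiment. The values stand side by side here and the difference between lines was not tested. RUVBL2 fell by 1.24 in AsPC-1 and 1.27 in BxPC-3, beside 1.76 in T3M-4. In AsPC-1 5284 of 12164 genes passed (43.4%), 3945 higher (32.4%) and 1339 lower (11%), with a median of 0.14 over all genes. In BxPC-3 1204 of 12290 passed (9.8%), 528 higher (4.3%) and 676 lower (5.5%), with a median of -0.06. KRT5 was below the filter in AsPC-1 and gave -0.68 ± 0.08 (SE) in BxPC-3. KIF20A gave -0.62 ± 0.11 in AsPC-1 and -0.70 ± 0.11 in BxPC-3, and CD74 0.71 ± 0.21 and 0.45 ± 0.24. IFI27 gave -0.66 ± 0.41 and 0.23 ± 0.21, beside 2.63 in T3M-4.

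Of the lists, the chemokine and NF-kB genes had 14 higher and 1 lower of 20 (median 0.46) in AsPC-1 and 12 higher and 0 lower of 28 (median 0.41) in BxPC-3. The G2/M genes had 5 higher and 20 lower of 54 (median -0.10) and 0 higher and 20 lower of 54 (median -0.26). Interferon-stimulated genes had 5 higher and 4 lower of 29 (median -0.08) and 1 higher and 0 lower of 30 (median 0.10), and class I and antigen-processing genes 6 higher and 2 lower of 15 (median 0.17) and 2 higher and 1 lower of 15 (median 0.08), near the shares of all genes in AsPC-1. Histone genes had 11 higher and 1 lower of 14 (median 1.16) and 5 higher and 0 lower of 12 (median 0.50), the list with the highest median of those shown in both lines. Several lists had counts opposite to those of T3M-4 in AsPC-1, where 32.4% of all genes were higher and 11% lower (median 0.14). Against that shift, the ribosome biogenesis and CCT chaperonin medians were near the background. The Moffitt Classical genes had 19 higher and 52 lower of 161 (median -0.07) there, the ribosome biogenesis genes 13 higher and 3 lower of 30 (median 0.16), the CCT chaperonin genes 4 higher and 0 lower of 8 (median 0.13) and the heat shock and HSP90 genes 7 higher and 1 lower of 11 (median 0.20). In BxPC-3 the same lists had 9 higher and 6 lower of 130 (median 0.02), 1 higher and 2 lower of 30 (median -0.04), 0 higher and 0 lower of 8 (median 0.00) and 0 higher and 1 lower of 11 (median -0.08). KISS1, among the genes most in excess over sgKLF5 in T3M-4, gave 2.47 ± 0.23 in AsPC-1, 1.59 ± 0.20 in BxPC-3 and 2.05 ± 0.19 (SE) in T3M-4.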

How the data were processed

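Gene levels came from one deposited table for T3M-4, experiment 2, and from the matching AsPC-1 and BxPC-3 tables. Per the labels and the study's methods, poly-A RNA was sequenced as single-end 76 bp reads, the authors quantified transcripts with kallisto on hg38, summarised them to gene TPM with tximport, removed low-abundance transcripts and left out 1 sgRUVBL1 sample of low library concentration. TPM keep no read counts, so depth is unknown and counting error cannot be given.

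The 19 T3M-4 libraries entered 1 linear model on log2(TPM + 1), with limma 3.58.1 in R 4.3.3, an intensity trend, two-sided tests and Benjamini-Hochberg adjustment over the 13136 genes tested (threshold 0.05). Adjusted p-values come from these fits, and log2 differences understate the change of low genes. The code was tested on simulated data. Genes were named by rule: the 12 largest rises and falls at 10 TPM or more with separate groups, the 5 largest per direction against the other knockouts, the 4 largest per list and genes the study names. Exceptions are stated. The members and lists were chosen with earlier results of these data known. Of the gene names, 541 match no symbol, 206 of them tested, with 1.9% to 2.39% of TPM. Alternatives covered the pseudocount, the filter, the scaling, the libraries fitted, a replicate block and each library left out.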

Additional observations from a re-analysis of the deposited data

Results flagged for a closer look

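In T3M-4, 3 values stood far from the other libraries of their group of 4 by Dixon's test, among 106 groups of values tested, where chance flags about 1 in 20. DUOX2, the dual oxidase, was at 3.73 TPM in sgRosa replicate 3, with the next control at 1.63 TPM. CNTN1, the neuronal adhesion molecule, was at 27.9 TPM in sgRosa replicate 4, with the next control at 31.9 TPM. MYC was at 80.8 TPM in sgRUVBL2 replicate 1, with the next library at 95.4 TPM.

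Among the 53 named genes screened for it, 2 that fell in T3M-4 went the other way in all 4 AsPC-1 libraries, each set against the mean of its sgRosa libraries. AKR1B10, the aldo-keto reductase, differed by 0.52 on the log2 scale in AsPC-1 and by -1.81 in T3M-4. RGS2, the brake on G protein signalling, differed by 0.11 and -1.42. The difference between the lines was not tested.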

How the results depend on the processing

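The count of genes called against sgRosa, 7209, ran from 6448 to 7519 with 1 library left out, and from 4053 to 4922 and 4531 to 5408 against sgCDK1 with sgRPA3 and against sgKLF5. Against sgRUVBL1 it was 3, ran from 2 to 307 with 1 library left out, and was 8 with no filter on low values. With only the compared groups fitted, 5518 genes passed against sgRosa. Leaving out the libraries that stood apart, chosen after seeing the data, gave 7524 genes without sgRosa replicate 4 and sgRUVBL2 replicate 1, and 7092 (3485 higher, 3607 lower) without sgRosa replicate 4 under median-of-ratios scaling. Against sgKLF5 that scaling took the share of higher genes from 60.4% to 48.9%. KLF5 turned to -0.044 under median-of-ratios scaling and to -0.088 with sgRosa replicate 4 also left out. MYC turned to -0.10 and -0.17 in the same settings and ran from -0.049 to 0.19 with 1 library left out, and TAF1D from -0.14 to 0.012. The cause was not tested. The labels share replicate numbers but do not say whether these pair the samples. Same-numbered sgRUVBL2 and sgRosa libraries gave correlations of -0.167, 0.285, 0.142 and -0.2. Those with sgRUVBL1 were 0.0902, 0.227 and 0.113, and those with sgKLF5 were 0.0784, 0.129, -0.183 and -0.033. So few libraries can neither show nor exclude pairing. With the replicate block 7371, 3, 4853 and 5302 genes passed in the 4 comparisons. Of 240 named genes, the block changed the call of 0, median-of-ratios scaling weakened 6 and fitting only the compared groups weakened 14. Depth cannot be read from TPM, so small differences of low genes are not firmly measured.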
